A study of Homo sapiens with 8 samples.

Results

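The genes described here differed in the same direction between membrane-passing and non-passing sublines of both esophageal carcinoma lines studied, KYSE30 and KYSE180. A gene counted as shared when its level in the D subline lay on the same side of its U partner in all 4 parental pairs and when the higher of its 2 group means exceeded a log2 value of 5 in each line. Of 19775 genes with a named probe set, 2638 (13.3%) met this rule, 1665 of them higher and 973 lower in D. All 2638 also passed the filter on dim probe sets that left 14180 genes for testing, of which they make up 18.6%.

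KYSE30 and KYSE180 are established human lines from esophageal squamous cell carcinomas, and the labels describe both source tumours as well differentiated. Each line had gone through 4 rounds of selection on transwell inserts, in which cells crawl through a porous membrane. Cells that crossed it make up the groups 30D and 180D, named in the labels as the more motile, and cells that stayed behind make up 30U and 180U. All 4 groups were cultured for 2 passages after harvest before RNA was taken, so the levels are those of growing sublines and not of cells in transit, and no group was left unselected. Each group holds 2 Affymetrix arrays. The 4 parental populations were selected side by side, and each gave 1 D and 1 U subline, so an array stands for a separately selected population. The pairs are 30D-1 with 30U-1, 30D-2 with 30U-2, 180D-1 with 180U-2 and 180D-2 with 180U-1.

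A carcinoma cell that crosses a pore has to extend actin-rich protrusions, grip the matrix through integrins and focal adhesions, loosen or rearrange its contacts with neighbours and, where matrix blocks the way, cut it with secreted or membrane-bound proteases. Squamous cells can also leave their differentiation programme, in which small proline-rich proteins are crosslinked into the cornified envelope. Growth factor, cytokine, Notch, YAP and interferon signals feed into these programmes through transcription factors. Comparing the D minus U change in both lines asks which transcripts moved alike in cells of different origin.

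Arrays of 1 group correlated at 0.997 to 0.998 across the tested genes, those of U and D within a line at 0.992 to 0.995, and those of KYSE30 with KYSE180 at 0.860 to 0.869. The array 180D-1 stood apart in its control probe sets. Its ACTB signal was higher at the 3′ end than at the 5′ end by 1.92, where the rest had 1.06 to 1.42. The control for 18S ribosomal RNA was 11.47, below the 12.35 to 12.54 found elsewhere. Their part in the results was not tested. Asking for the same sign in the other 3 pairs, without the pair of 180D-1 and 180U-2, gave 2676 shared genes higher and 1740 lower, a weaker condition by construction, and the counts of a list are given this way where they move by over 1.5 times. Among the squamous markers the epithelial genes EPCAM and CDH1 were high, at group means of 12.3 to 12.6 and 11.7 to 11.8. Of the 12 simple and glandular epithelial markers the keratins KRT8, KRT18 and KRT19 were at 11.3 to 13.7, while the intestinal genes KRT20 (2.27 to 2.46) and MUC2 (4.32 to 4.51) were near or below the filter value. In that list 3 of 10 tested genes were shared, all higher in D, and 0 passed the additive fit described further on. Of all tested genes 11.7% were shared and higher and 0.557% were called higher, so counts in so short a list do not set it apart. The summed signal of this list, as log2, was 14.82 in 30U, 14.88 to 14.90 in 30D, 13.45 to 13.51 in 180U and 13.55 to 13.59 in 180D, and its part in the other results was not tested. KRT14, a keratin that defines basal squamous cells, lay below the filter value of 4.46 in both KYSE30 groups (3.54 and 4.13) but at 13.6 and 13.4 in 180U and 180D, and KRT5 read 4.63 and 4.84 in KYSE30 against 12.3 in both KYSE180 groups. Of the fibroblast, immune and endothelial marker lists, 0 of 4, 0 of 3 and 0 of 5 tested genes were shared. With 18.6% of all tested genes shared, counts of 0 in lists this short are near that share. The summed signal of the fibroblast list, as log2, lay between 8.07 and 8.26 in KYSE30 and between 8.37 and 8.81 in KYSE180, with 6 of 10 genes below the filter on all arrays. Its brightest gene was COL1A1, at group means of 6.63 to 7.84. That of the immune list lay between 7.23 and 7.52 and that of the endothelial list between 7.78 and 7.99 on all arrays, and PTPRC, which defines immune cells, stayed at group means of 2.87 to 3.07. The neural and melanocytic list was brighter, with a summed signal of 12.03 to 12.22. TUBB3 lay at group means of 11.7 to 11.9 and MAP2 at 9.13 to 9.52. In that list 1 of 6 tested genes was shared, lower in D, against 6.86% of all tested genes, and 0 passed the additive fit.

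Most shared changes were small. The median D minus U difference of the shared genes that were higher in D was 0.14 in KYSE30 and 0.12 in KYSE180 on the log2 scale, and that of the lower ones was -0.14 and -0.11. Over all 14180 tested genes the median was 0.01 in KYSE30 and 0.02 in KYSE180. Only 100 higher and 51 lower genes differed by at least 1.2-fold in each line, 5 and 7 by at least 1.5-fold, and 0 by at least 2-fold in each. The rule has a threshold on level, and the genes next to it were CA4 and LOC285847 just inside, with 5.002 and 5.004 in the line that decided it, and IGK and LOC101927247 just outside, with 4.999 and 4.996. Across the tested genes, which are not independent replicates, the changes in the 2 lines correlated at r = -0.07 (Spearman's rho = -0.07).

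**Figure D1:**
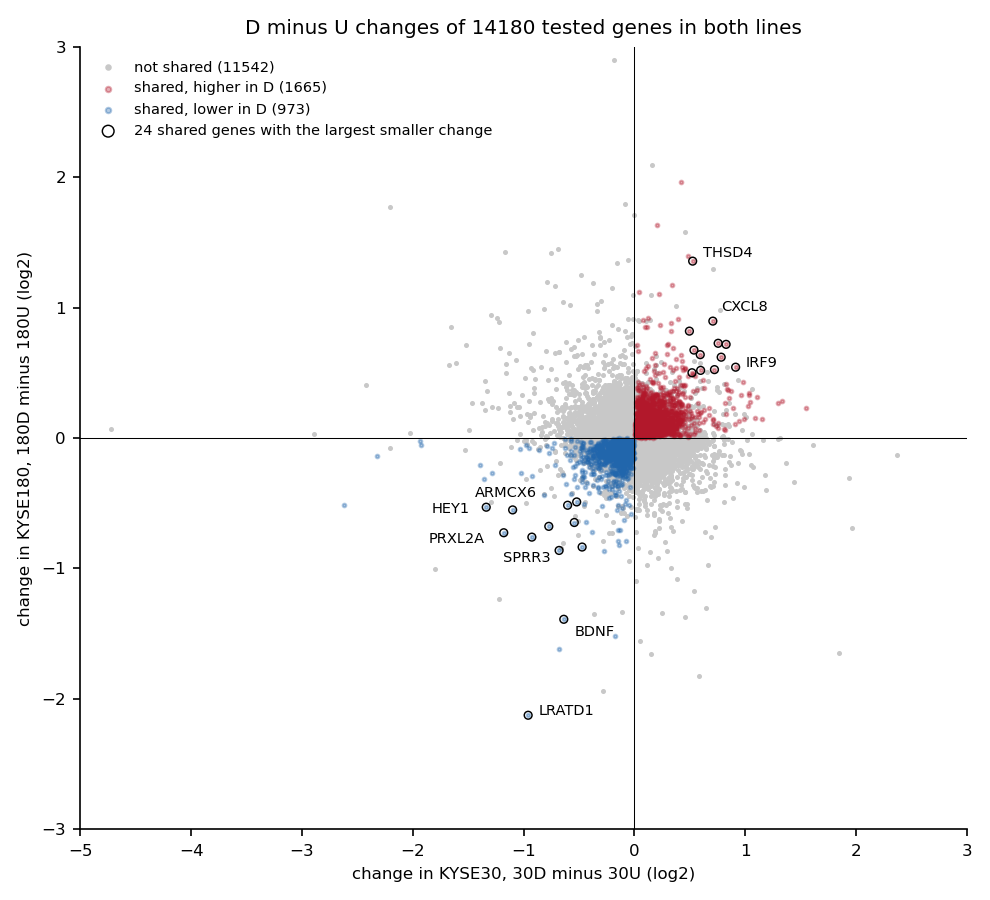
Change from U to D in KYSE30 (horizontal, log2) and in KYSE180 (vertical, log2) for 14180 tested genes, each a point. The 1665 shared genes higher in D (red) and the 973 lower in D (blue) crowd near 0, and the 24 genes with the largest change in the line where it was smaller (open circles), among them LRATD1 at -0.96 and -2.13, lie farther out.

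Each gene was also tested with limma for a change over both lines in an additive fit with terms for line and fraction, and called at an adjusted p under 0.05. The rule had used the sign of these same differences, so the calls describe how large a change was against the spread between arrays and are no separate support for it. Of the tested genes, 124 (0.874%) passed, 79 higher (0.557%) and 45 lower (0.317%) in D, and after centring every array on its median 63 were higher and 63 lower. Among the shared genes 103 passed, 68 higher and 35 lower. The other 21 called genes had the same sign in all pairs and missed the level threshold. Changes of the called shared genes ran from 0.25 to 0.94 (median 0.42) when higher and from -1.54 to -0.26 (median -0.48) when lower. No gene passed this fit when the parental population was added as a block. The smallest adjusted p was then 0.0953, and 1659 genes had an unadjusted p under 0.05, against 2265 without the block. An additive fit counts a difference in size between the lines as residual spread. The mean of the 2 within-line contrasts, taken from a fit of the 4 group means, does not, and by it 1281 genes (9.03%) passed, 752 higher (5.30%) and 529 lower (3.73%). With the block 602 passed, and 98 of the 103 called shared genes were among them. Leaving out 1 array lowered the additive count to between 16 (without 30D-2) and 77 (without 180D-2), with 26 without 30U-1, 35 without 30U-2, 30 without 30D-1, 47 without 180U-1, 72 without 180U-2 and 52 without 180D-1. Of the 103 genes 12 passed in all 8 of these fits and 39 passed without 180D-1, whereas by the mean of the within-line contrasts 89 passed in all 8.

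Tested within each line, 2346 genes (16.5%) passed in KYSE30, 1194 higher (8.42%) and 1152 lower (8.12%) in 30D. In KYSE180 532 (3.75%) passed, 361 higher (2.55%) and 171 lower (1.21%). Of the shared genes 647 passed in KYSE30 and 176 in KYSE180. They overlapped in 87, 59 higher and 28 lower, and 1902 passed in neither line. Over all tested genes 102 (0.719%) passed in each line with the same direction, 66 higher (0.465%) and 36 lower (0.254%), and 151 (1.06%) with opposite directions. With the block 41 of the shared genes passed in each line, 38 of them among the 87. In 1724 shared genes no D array overlapped a U array of its line, as in 1911 of all tested genes (13.5%, 8.41% higher and 5.07% lower), and all 103 called shared genes were among the 1724.

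The 24 genes described next are the 12 higher and 12 lower called genes with the largest change in the line where it was smaller. In all 24 the D arrays lay beyond both U arrays of their line, all 24 passed by the mean of the within-line contrasts with the block, and 23 passed in each line separately, the exception being MFAP2 (adjusted p = 0.0609 in KYSE180). The additive call held in 14 of them without 30U-1, 17 without 30U-2, 16 without 30D-1, 11 without 30D-2, 16 without 180U-1, 17 without 180U-2, 17 without 180D-1 and 19 without 180D-2. A higher level in a subline may reflect more cells that express a gene or more RNA per cell, which these bulk samples cannot tell apart.

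**Figure D2:**
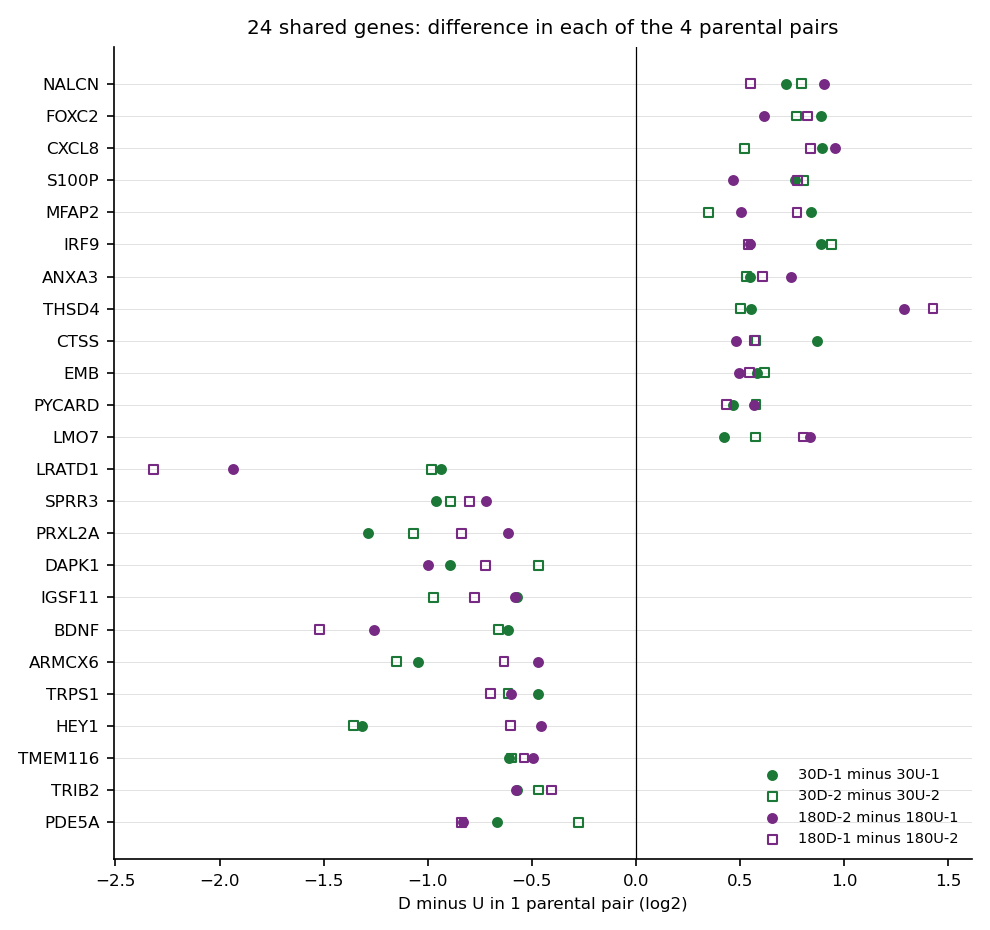
D minus U difference (log2, horizontal) of 24 shared genes in each of the 4 parental pairs, with KYSE30 pairs in green and KYSE180 pairs in purple. By the rule all 4 points of a gene lie on 1 side of 0. Pairs lie close together within a line for IRF9 and EMB, and the lines lie apart for LRATD1 and HEY1.

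Secreted and extracellular proteins were among the genes with the largest changes in both directions. CXCL8 encodes interleukin-8, a chemokine that attracts neutrophils and that NF-kB induces. It read 4.66 and 4.92 in 30U, 5.56 and 5.45 in 30D, 6.31 and 6.21 in 180U, and 7.05 and 7.26 in 180D. Both D arrays of each line were thus above both U arrays, at different starting levels, and the change over both lines was 0.80 ± 0.08 (SE, 2 arrays per group; limma adjusted p = 0.00964), or 1.74-fold. A second CXCL8 probe set moved the same way in all 4 pairs. THSD4, a secreted ADAMTS-like protein that associates with fibrillin microfibrils, read 7.69 and 7.80 in 30U, 8.24 and 8.30 in 30D, 8.81 on both 180U arrays, and 10.24 and 10.10 in 180D. It had the largest mean change of the called higher genes, 0.94 ± 0.15 (adjusted p = 0.0377), and was higher by 1.44-fold in 30D and 2.56-fold in 180D. MFAP2, another microfibril component, read 5.18 and 5.41 in 30U, 6.02 and 5.76 in 30D, 6.95 and 7.05 in 180U, and 7.82 and 7.46 in 180D (0.62 ± 0.10, adjusted p = 0.0338). Its spread within a D group was wide compared with its change. THSD4 missed the threshold without any 1 of the 8 arrays (adjusted p up to 0.0958) and MFAP2 without any array other than 180D-2 (up to 0.116).

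CTSS encodes cathepsin S, a cysteine protease of lysosomes that can also be secreted and cuts matrix proteins. Its levels were 5.74 and 5.95 in 30U, 6.61 and 6.53 in 30D, 4.85 and 4.76 in 180U, and 5.33 on both 180D arrays. The change was 0.62 ± 0.07 (adjusted p = 0.00998), and 0.0520 without 30D-2. BDNF, a neurotrophin that signals through the receptor TrkB, went the other way, with 8.40 and 8.45 in 30U, 7.78 and 7.79 in 30D, 6.12 and 6.34 in 180U, and 4.82 and 4.86 in 180D. It fell by 1.01 ± 0.14 on the log2 scale (adjusted p = 0.0235), 1.55-fold lower in 30D and 2.62-fold lower in 180D. The additive call of BDNF was lost without any array other than 180U-2 (adjusted p up to 0.0794). LGALS1, galectin-1, is a secreted lectin that binds matrix and cell-surface glycans and had a mean change of 0.94 ± 0.17 at the edge of the threshold (adjusted p = 0.04997). It was abundant in KYSE30, with 12.28 and 12.27 in 30U and 12.77 and 12.75 in 30D, and less so in KYSE180, with 8.39 and 8.47 in 180U and 9.82 and 9.83 in 180D. The 2 arrays of each LGALS1 group lay close together, and the call was lost without any 1 array (adjusted p up to 0.131).

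At the cell surface, NALCN, a sodium leak channel that sets the resting potential of excitable cells, was near background in the U groups. It read 4.91 and 4.79 in 30U, 5.63 and 5.58 in 30D, 4.91 and 5.08 in 180U, and 5.63 and 5.81 in 180D. The change was 0.74 ± 0.06 (adjusted p = 0.00628), almost the same size in KYSE30 (0.76) and KYSE180 (0.73), and NALCN was one of 4 called genes higher in D whose level was not called different between the lines. EMB encodes embigin, an immunoglobulin-family glycoprotein that chaperones monocarboxylate transporters. It read 8.0 and 7.96 in 30U, 8.59 and 8.57 in 30D, 7.48 and 7.60 in 180U, and 8.14 and 7.97 in 180D (0.56 ± 0.06, adjusted p = 0.00964). The adhesion molecule IGSF11 was lower, at 4.94 and 5.29 in 30U, 4.37 and 4.32 in 30D, 6.46 and 6.59 in 180U, and 5.81 and 5.88 in 180D. Since the 30D arrays lay below the filter value of 4.46, IGSF11 was at least 1.58-fold lower in 30D, and it was 1.60-fold lower in 180D (change over both lines -0.72 ± 0.08, adjusted p = 0.00998, and 0.0520 without 30D-2).

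Several transcription factors differed in both lines. FOXC2, a forkhead factor of mesoderm and lymphatic development that is also tied to the mesenchymal state of carcinoma cells, read 5.20 and 5.17 in 30U, 6.09 and 5.94 in 30D, 6.23 on both 180U arrays, and 7.05 and 6.85 in 180D. It was higher in D by 0.77 ± 0.06 (adjusted p = 0.00628) or 1.71-fold, with no overlap of D and U in either line. HEY1, a repressor that Notch induces, read 9.28 and 9.25 in 30U and 7.97 and 7.90 in 30D, a 2.53-fold difference. In 180U it read 8.93 and 8.94 and in 180D 8.33 and 8.48, a 1.44-fold difference. HEY1 fell over both lines by 0.93 ± 0.15 (adjusted p = 0.0340), and this call was lost without any array other than 180D-2 (adjusted p up to 0.113). TRPS1, a GATA-type repressor, read 7.84 and 7.81 in 30U, 7.37 and 7.20 in 30D, 6.88 and 7.01 in 180U, and 6.31 and 6.29 in 180D. It fell by 0.59 ± 0.06 (adjusted p = 0.00964), and its other 3 probe sets were lower in all 4 pairs. IRF9, a DNA-binding factor of the interferon response, belongs with the interferon genes described further on.

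The next 4 genes were also higher in D. S100P, a calcium-binding protein that many carcinomas overproduce, read 7.27 and 7.25 in 30U, 8.04 and 8.06 in 30D, 4.92 and 4.91 in 180U, and 5.68 and 5.39 in 180D (0.70 ± 0.07, adjusted p = 0.00964). Annexin A3, ANXA3, binds membranes in the presence of calcium and read 10.15 and 10.22 in 30U, 10.70 and 10.75 in 30D, 6.25 and 6.15 in 180U, and 6.76 and 7.0 in 180D. ANXA3 was higher in D by 0.61 ± 0.07 (adjusted p = 0.00998, and 0.0520 without 30D-2), although its level was far lower in KYSE180. LMO7, a LIM domain protein of cell junctions, read 8.98 and 9.03 in 30U, 9.40 and 9.61 in 30D, 5.37 and 5.42 in 180U, and 6.23 and 6.21 in 180D (0.66 ± 0.08, adjusted p = 0.0133, and up to 0.0640 without 30U-1 or 30D-2). PYCARD, the adaptor that links inflammasome sensors to caspase-1, read 8.27 and 8.18 in 30U, 8.73 and 8.76 in 30D, 7.84 and 7.87 in 180U, and 8.31 and 8.41 in 180D (0.51 ± 0.05, adjusted p = 0.00668). The changes of PYCARD in the 2 lines were 0.52 and 0.50.

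Signalling genes that were lower in D include a kinase, a pseudokinase and a phosphodiesterase. DAPK1, a calcium-regulated kinase that promotes cell death, read 5.45 and 5.59 in 30U, 4.56 and 5.12 in 30D, 6.89 and 6.78 in 180U, and 6.05 and 5.89 in 180D (-0.77 ± 0.12, adjusted p = 0.0302). Its 30D arrays were the widest apart of these 24 genes, and the call was lost without any array other than 30D-2 (adjusted p up to 0.105). TRIB2, a Tribbles pseudokinase, read 6.74 and 6.78 in 30U, 6.17 and 6.31 in 30D, 7.63 and 7.74 in 180U, and 7.34 and 7.05 in 180D (-0.51 ± 0.07, adjusted p = 0.0235). PDE5A, which degrades cyclic GMP, read 7.07 and 6.78 in 30U, 6.41 and 6.51 in 30D, 6.17 and 6.21 in 180U, and 5.37 and 5.34 in 180D (-0.65 ± 0.09, adjusted p = 0.0235). TRIB2 lost its call without any array but 180D-1 or 180D-2 (adjusted p up to 0.0967), and PDE5A without any but 30U-2 (up to 0.0896). With the mean of its probe sets past the filter PDE5A changed by -0.35 and was not called (adjusted p = 0.0760).

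SPRR3 had the smallest p of all genes lower in D when each gene was read from its brightest probe set. It encodes a small proline-rich protein of the cornified envelope that is typical of esophageal epithelium. It read 8.64 and 8.61 in 30U, 7.68 and 7.72 in 30D, 9.11 and 9.14 in 180U, and 8.34 and 8.39 in 180D. The D arrays of each line lay well below its U arrays, the change was -0.84 ± 0.05 (adjusted p = 0.00190), 1.90-fold lower in 30D and 1.69-fold in 180D, and the adjusted p without any 1 array was at most 0.0211. The other SPRR3 probe set changed by only -0.19, and with the mean of the probe sets the change was -0.52 (limma adjusted p = 0.0277). LRATD1, a protein of the LRAT domain family, had the largest mean change of the called genes when each gene was read from its brightest probe set. It read 7.68 and 7.61 in 30U, 6.74 and 6.63 in 30D, 5.78 and 5.87 in 180U, and 3.55 and 3.85 in 180D. Both 180D arrays fell short of the filter value, so LRATD1 was at least 2.58-fold lower there, and it was 1.94-fold lower in 30D (change over both lines -1.54 ± 0.22, adjusted p = 0.0235). Its other 2 probe sets changed by -0.95 and -0.05, and with the mean of the probe sets its change was -0.85 (adjusted p = 0.0120), smaller than that of HEY1 (-0.91). Without any array other than 30U-2 or 30D-1 the call was lost (adjusted p up to 0.0726).

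The last of these genes are less well known. PRXL2A, a peroxiredoxin-like protein, read 7.28 on both 30U arrays, 6.00 and 6.21 in 30D, 10.12 and 10.25 in 180U, and 9.41 and 9.51 in 180D (-0.95 ± 0.10, adjusted p = 0.00998, and 0.0502 without 30D-2). ARMCX6, an armadillo-repeat gene of the X chromosome, read 6.75 and 6.80 in 30U, 5.70 and 5.65 in 30D, 8.90 and 9.04 in 180U, and 8.41 and 8.43 in 180D (-0.82 ± 0.11, adjusted p = 0.0185). The transmembrane protein TMEM116 read 7.55 and 7.51 in 30U, 6.94 and 6.91 in 30D, 8.45 and 8.54 in 180U, and 8.0 and 7.95 in 180D (-0.56 ± 0.05, adjusted p = 0.00628). None of these groups overlapped within a line. ARMCX6 lost its call without any of the 4 KYSE30 arrays (adjusted p up to 0.0729), and TMEM116 kept it without each of the 8.

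**Figure D3:**
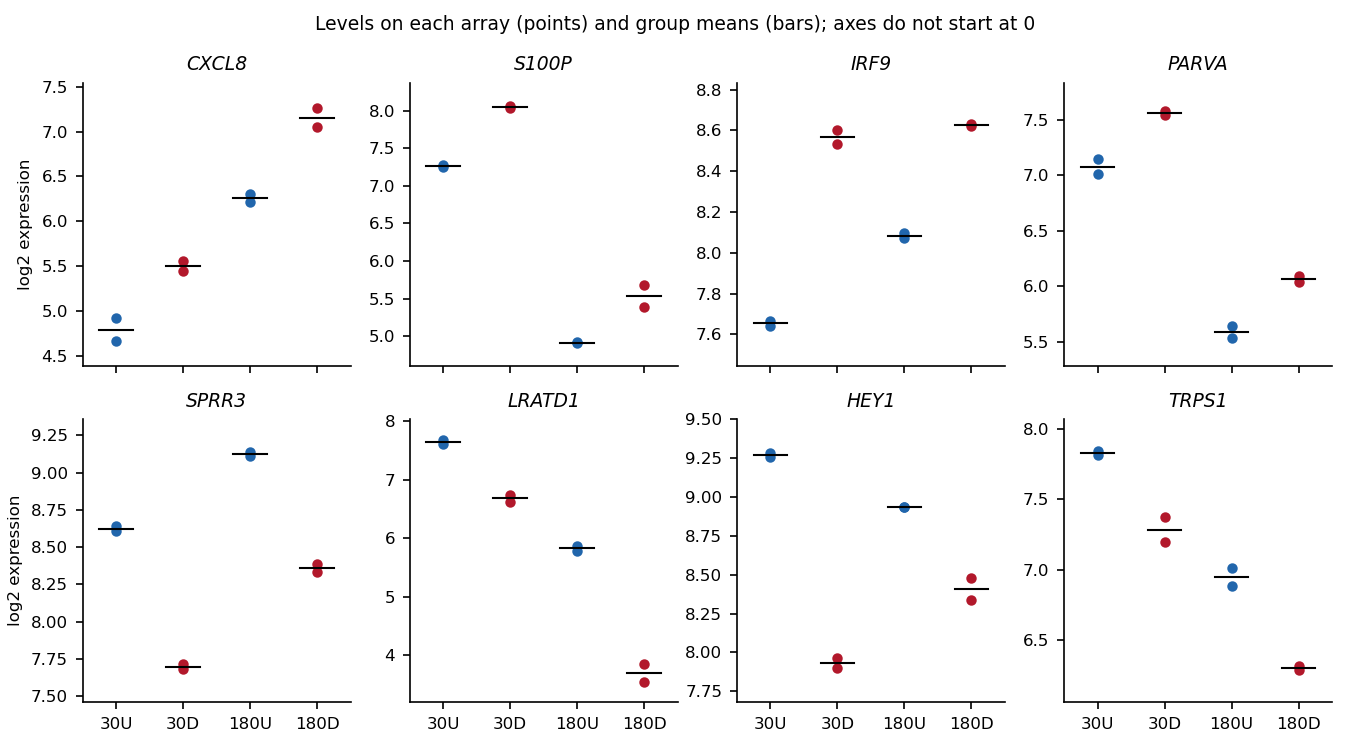
Log2 expression of 8 shared genes on each of the 8 arrays (points, U in blue and D in red) with the mean of each group (bars). In each panel both D arrays lie on the same side of both U arrays within KYSE30 and within KYSE180, as for SPRR3 at 8.64 and 8.61 in 30U against 7.68 and 7.72 in 30D.

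Further called genes, chosen here after their values were seen, illustrate the rest of the 103. Higher in D were ETS1, a transcription factor that activates protease genes (0.42 ± 0.04, adjusted p = 0.00964), GATA6, an endodermal factor (0.37 ± 0.06, 0.0307), GSN, gelsolin, which severs actin filaments (0.40 ± 0.05, 0.0134), and CDC42EP1, an effector of the GTPase CDC42 (0.39 ± 0.05, 0.0235). The surface proteins FLRT2 (0.66 ± 0.10, 0.0296), ALCAM (0.31 ± 0.04, 0.0235) and PODXL (0.37 ± 0.06, 0.0346), and PROCR, the protein C receptor (0.43 ± 0.04, 0.00964), were also higher. Lower in D were NRIP1, a nuclear receptor corepressor (-0.54 ± 0.06, 0.00998), SATB1, a chromatin organiser (-0.63 ± 0.10, 0.0302), RNF128, a ubiquitin ligase (-0.55 ± 0.08, 0.0235), and AHR, the aryl hydrocarbon receptor (-0.37 ± 0.05, 0.0235). NRIP1 kept its call without each array. ETS1 and PROCR lost theirs only without 30D-2 (adjusted p = 0.0502 for both). The others lost theirs in at least 3 of the 8 fits, with adjusted p up to 0.129 for PODXL. Another probe set of GATA6 had a mean change in the other direction.

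Genes of adhesion and movement were then read by list. In the list of focal adhesion and integrin genes 8 of 30 tested genes were shared and higher and 2 shared and lower, against 11.7% and 6.86% of all tested genes, and 1 passed the additive fit. That gene was PARVA, alpha-parvin, which ties integrin-linked kinase to actin. It read 7.14 and 7.01 in 30U, 7.58 and 7.54 in 30D, 5.53 and 5.64 in 180U, and 6.04 and 6.09 in 180D. Both D groups lay above their U groups by 0.48 (change over both lines 0.48 ± 0.05, adjusted p = 0.00998, and 0.0502 without 30D-2), and all 4 other PARVA probe sets had a mean change in the same direction. The integrin subunit ITGA2 (0.22 ± 0.05, 0.107), the zyxin-family protein LPP (0.22 ± 0.06, 0.130) and the scaffold PXN, paxillin (0.23 ± 0.06, 0.133), had the next smallest adjusted p and did not pass. With arrays centred on their median the shared counts of this list were 5 and 3, so they depend on where 0 is set. The medians of the list were 0.11 in KYSE30 and 0.00 in KYSE180.

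In the list of actin cytoskeleton and motility genes 8 of 47 were shared and higher and 2 lower, or 4 and 4 with centred arrays and 13 and 6 without the pair of 180D-1, and 0 passed the additive fit. CNN3, an actin-binding calponin, differed by 0.12 in KYSE30 and 0.92 in KYSE180, and PFN2, a profilin, by -0.29 and -0.10. MYLK, the myosin light chain kinase, had 0.29 and 0.34, with 30U and 30D arrays next to each other at 6.15 and 6.14, and TAGLN2 had 0.18 and 0.09. The medians of this list, 0.05 and 0.03, lay near those of all tested genes.

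Matrix proteases and their inhibitors had 7 of 28 genes shared and higher and 1 lower, or 7 and 2 with centred arrays and 8 and 2 without the pair of 180D-1. CTSS rose, as described. The other 2 called genes of the list, MMP10 and CST6, missed the level threshold of the rule. TIMP2, a metalloproteinase inhibitor (0.25 ± 0.05, adjusted p = 0.0630), MMP9, a gelatinase (0.23 ± 0.05, 0.0740), and PLAUR, the urokinase receptor (0.31 ± 0.07, 0.0941), did not pass over both lines. PLAUR differed more in KYSE30 (0.46) than in KYSE180 (0.15). MMP16, a membrane-anchored metalloproteinase, had the largest mean difference of all shared genes in the higher direction, 1.19 ± 0.33, and did not pass (adjusted p = 0.151). It read 6.64 and 6.50 in 30U, 7.08 and 6.90 in 30D, 3.49 and 4.44 in 180U, and 5.79 and 6.08 in 180D, and since the 180U arrays lay below the filter value it was at least 2.78-fold higher in 180D. The other MMP16 probe set past the filter changed by only 0.11, without the same sign in every pair. Both the largest mean difference and this bound thus come from the brightest probe set alone.

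Extracellular matrix and basement membrane genes were split, with 5 of 27 shared and higher and 2 shared and lower, or 3 and 4 with centred arrays. TNC, tenascin-C, a matrix glycoprotein of migrating and wounded epithelium, read 8.24 and 8.35 in 30U, 7.84 and 7.87 in 30D, 7.95 and 7.78 in 180U, and 7.52 and 7.45 in 180D. TNC fell in D by 0.41 ± 0.06 (adjusted p = 0.0226), and the call was lost without any array other than 180U-2 (up to 0.0917). FREM2, a basement membrane protein, was at least 2.53-fold lower in 30D, where it lay below the filter value, while 180D differed from 180U by -0.14. LTBP2, a microfibril-associated protein (0.32 ± 0.08, 0.112), and the laminin chain LAMC1 (0.18 ± 0.06, 0.207) were higher in all pairs and did not pass. The other called gene of the list, FBN2, missed the level threshold.

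Junction and differentiation genes did not take 1 direction. In the list of epithelial junctions 4 of 32 were shared and higher and 4 shared and lower, or 2 and 5 with centred arrays and 7 and 5 without the pair of 180D-1, and 0 passed the additive fit. The desmosomal cadherin DSC3 differed by -1.28 in KYSE30 and -0.27 in KYSE180, the tight junction gene CLDN7 by 0.46 and 0.04, CGN, cingulin, by 0.21 and 0.33 and PERP, a desmosomal membrane protein, by -0.10 and -0.15. In the list of squamous differentiation genes 5 of 39 were shared in each direction and SPRR3 passed. The precursor of the cornified envelope SCEL, sciellin (0.31 ± 0.06, adjusted p = 0.0595), periplakin, PPL (0.23 ± 0.05, 0.102), and the transcription factor KLF4 (-0.25 ± 0.05, 0.0798) did not pass. The next list lay near the shares over all tested genes, which were 11.7% shared and higher and 0.874% called. Of 18 genes of the mesenchymal state 3 were shared, all higher, and none passed. These were the cadherin CDH2 (0.23 in KYSE30 and 0.87 in KYSE180), the receptor kinase AXL (0.33 and 0.82) and the transcription factor TWIST1 (0.22 and 0.14), whose 180U and 180D arrays overlapped.

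Receptors and ligands of cell guidance had 10 of 39 genes shared and higher and 3 lower, or 9 and 5 with centred arrays. NRP1, neuropilin-1, a co-receptor for semaphorins and VEGF, read 7.11 and 7.05 in 30U, 7.73 and 7.70 in 30D, 5.91 and 5.76 in 180U, and 6.33 and 6.12 in 180D, a change of 0.51 ± 0.07 (adjusted p = 0.0248). ROBO1, the receptor for Slit ligands, read 7.64 and 7.58 in 30U, 7.36 and 7.30 in 30D, 7.69 and 7.80 in 180U, and 7.35 and 7.39 in 180D, and fell by 0.33 ± 0.05 (adjusted p = 0.0286). Each D array was beyond both U arrays of its line in both genes. NRP1 passed only without 180U-1 or 180D-2 among the fits that left out 1 array (adjusted p up to 0.0967), and ROBO1 in none of the 8 (up to 0.110). The ephrin EFNB2 (0.18 ± 0.04, 0.112) and the semaphorin SEMA4C (0.23 ± 0.06, 0.134) did not pass.

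Among targets of YAP and TEAD, the transcriptional arm of the Hippo pathway, 10 of 26 were shared and higher and 0 lower, or 7 and 1 with centred arrays. F3, tissue factor, which starts coagulation, read 11.36 and 11.30 in 30U, 11.69 and 11.72 in 30D, 9.19 and 9.20 in 180U, and 9.81 and 9.79 in 180D. F3 rose by 0.49 ± 0.06 (adjusted p = 0.0133, and 0.0533 without 30D-2) and was the only one to pass. AXL, WWC1 (0.18 ± 0.05, 0.138) and FJX1 (0.20 ± 0.06, 0.153) came next. The medians of the list were 0.03 in KYSE30 and 0.14 in KYSE180. In the list of inflammatory cytokines and NF-kB targets 5 of 20 were shared and higher and 1 lower, with centred arrays too, and CXCL8 passed. The chemokine CCL5 differed by 1.33 in KYSE30 and 0.29 in KYSE180, TNFAIP3, an inhibitor of NF-kB signalling, by 0.19 and 0.34, and SOD2 by -0.44 and -0.15. Of 29 TGF-beta response genes 6 were shared and higher and 1 lower, or 6 and 3 without the pair of 180D-1, and the ligands BMP2 (0.42 ± 0.05, adjusted p = 0.0162) and BMP4 (0.31 ± 0.05, 0.0334) passed. BMP4 passed in none of the 8 fits without 1 array and BMP2 in 4 of them.

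**Figure D4:**
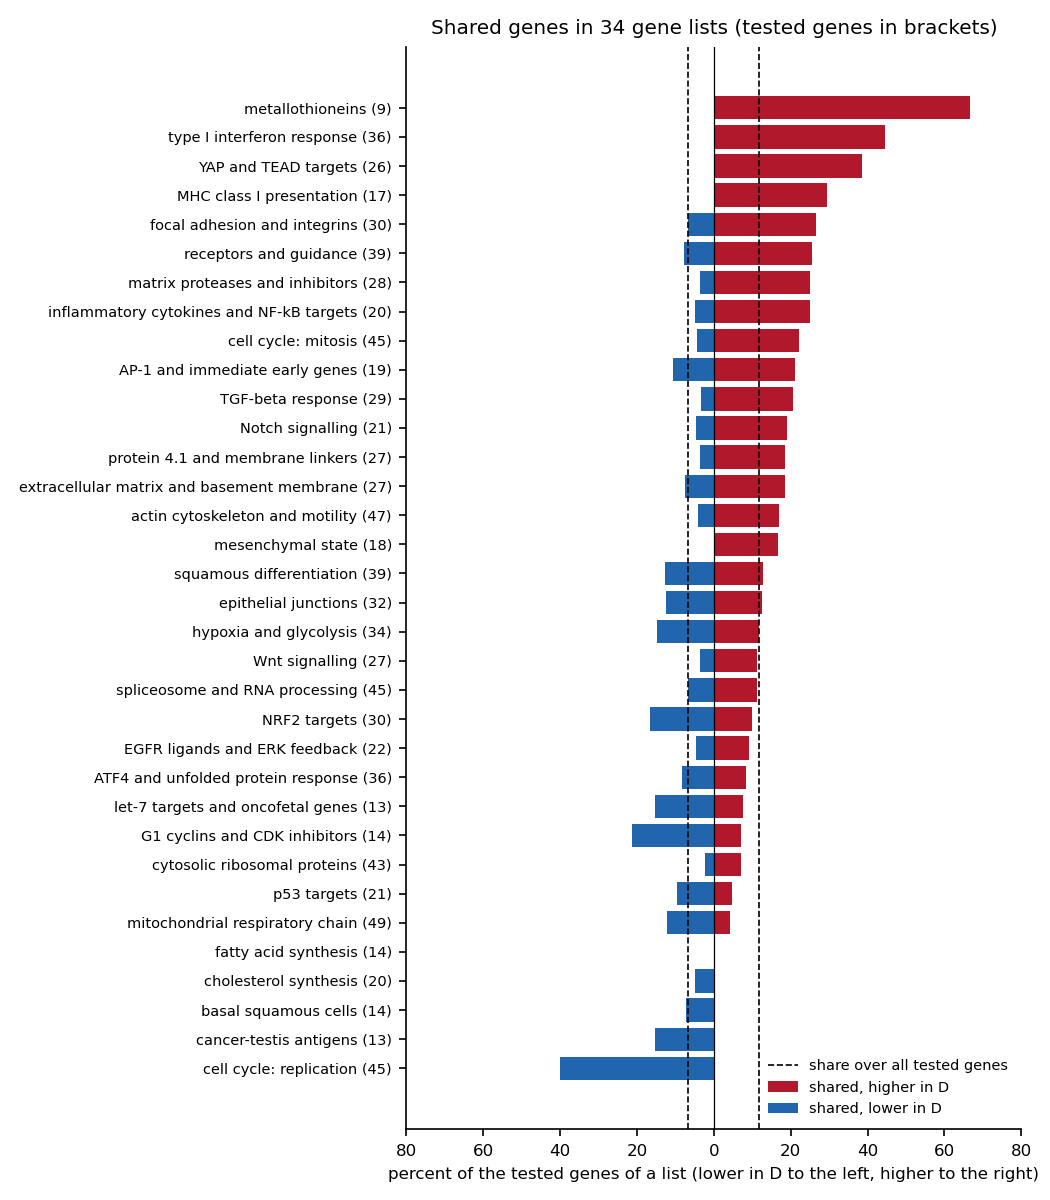
Percent of the tested genes of 34 gene lists that were shared and higher in D (red, right) or shared and lower in D (blue, left), with dashed lines at the percent over all 14180 tested genes. The metallothionein list (6 of 9 higher, SLC30A1 among them), the interferon response (16 of 36 higher) and DNA replication (18 of 45 lower) reach farthest from 0. Lists hold between 9 and 49 tested genes.

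Metallothioneins are small cysteine-rich proteins that bind zinc and copper. The zinc-sensing factor MTF1 induces them through metal response elements in their promoters, and it also induces the zinc exporter SLC30A1. In this list 6 of 9 tested genes were shared, all higher in D, also with centred arrays, and 4 passed the additive fit. MT2A read 11.96 and 11.98 in 30U, 12.79 and 12.81 in 30D, 10.30 and 10.29 in 180U, and 10.72 and 10.70 in 180D. MT1H read 10.61 and 10.65 in 30U, 11.61 on both 30D arrays, 8.87 and 8.97 in 180U, and 9.40 and 9.29 in 180D. In both genes the 2 arrays of a group lay close together and D lay above U, by 0.62 ± 0.08 (adjusted p = 0.0195) and 0.70 ± 0.11 (adjusted p = 0.0302). MT1G rose by 0.62 ± 0.10 (adjusted p = 0.0354) and SLC30A1 by 0.37 ± 0.04 (adjusted p = 0.0136), the latter from 10.18 and 10.14 in 30U to 10.55 and 10.53 in 30D and from 8.52 and 8.44 in 180U to 8.88 and 8.80 in 180D. MT1F (1.11 in KYSE30 and 0.31 in KYSE180) and MT1X (1.03 and 0.35) passed in each line and not in the additive fit (adjusted p = 0.0773 and 0.0573). The medians of the list were 0.88 in KYSE30 and 0.35 in KYSE180. SLC30A1 and MT2A lost their additive call without any of the 4 KYSE30 arrays (adjusted p up to 0.0664 and 0.0741), MT1H also without 180U-1 or 180D-1 (up to 0.105) and MT1G without any array (up to 0.126). The metallothionein genes are near-identical copies and the probe sets of MT2A, MT1H and MT1G are of the kind whose probes can match several of them, so which copy gave the signal is uncertain.

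The promoters of these genes were searched for the core of the metal response element, TGCACNC or TGCGCNC on either strand, a motif picked after the values were seen. In the 250 bases before the transcription start, from RefSeq on GRCh38.p14, 24.8% of 35116 promoters held a match and 1.58% held at least 3. Promoters were found for 4 of the 6 shared genes, and all 4 held a match, with 8 in MT1H, 7 in MT2A, 4 in MT1X and 1 in SLC30A1. They are shown 5′ to 3′ to let the spacing of the cores, in capitals, be compared. A match is a description of the sequence and does not show binding.
MT2A (chr16:56608334-56608583, plus strand): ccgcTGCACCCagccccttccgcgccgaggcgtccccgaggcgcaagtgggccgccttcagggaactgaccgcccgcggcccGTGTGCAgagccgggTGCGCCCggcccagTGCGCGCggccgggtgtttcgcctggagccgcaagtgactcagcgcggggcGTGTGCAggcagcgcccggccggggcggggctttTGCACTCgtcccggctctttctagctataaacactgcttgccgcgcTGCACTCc
MT1H (chr16:56669564-56669813, plus strand): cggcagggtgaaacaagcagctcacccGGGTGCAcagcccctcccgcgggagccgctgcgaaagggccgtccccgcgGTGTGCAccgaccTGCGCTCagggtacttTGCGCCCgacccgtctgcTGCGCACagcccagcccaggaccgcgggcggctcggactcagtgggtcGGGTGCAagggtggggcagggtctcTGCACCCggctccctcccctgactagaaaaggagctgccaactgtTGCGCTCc
MT1X (chr16:56682220-56682469, plus strand): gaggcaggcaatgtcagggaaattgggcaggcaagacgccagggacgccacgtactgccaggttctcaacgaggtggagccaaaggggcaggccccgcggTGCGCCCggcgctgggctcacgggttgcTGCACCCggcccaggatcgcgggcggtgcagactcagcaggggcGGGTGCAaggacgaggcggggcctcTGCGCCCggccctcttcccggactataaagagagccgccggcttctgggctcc
SLC30A1 (chr1:211579162-211579411, minus strand): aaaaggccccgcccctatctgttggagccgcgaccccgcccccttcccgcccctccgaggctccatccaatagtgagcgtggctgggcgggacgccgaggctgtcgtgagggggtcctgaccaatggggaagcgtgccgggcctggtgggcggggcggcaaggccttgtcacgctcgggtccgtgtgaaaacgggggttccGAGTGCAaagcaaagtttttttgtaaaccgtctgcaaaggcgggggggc

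Genes of the type I interferon response are switched on by transcription factors, IRF9 among them, that bind interferon-stimulated response elements. In this list 16 of 36 tested genes were shared, all higher in D, or 14 higher and 1 lower with centred arrays, and 2 passed the additive fit. IRF9 read 7.64 and 7.67 in 30U, 8.53 and 8.60 in 30D, 8.07 and 8.10 in 180U, and 8.63 and 8.62 in 180D. The D groups of both lines thus reached similar levels from different U levels, and IRF9 rose by 0.73 ± 0.08 (adjusted p = 0.00998), 1.88-fold in KYSE30 and 1.46-fold in KYSE180. IFIT1, which binds viral RNA lacking the host cap methylation, read 9.14 and 9.03 in 30U, 9.38 and 9.42 in 30D, 7.87 and 7.77 in 180U, and 8.13 and 8.21 in 180D. It rose by 0.33 ± 0.05 (adjusted p = 0.0289), a call that was lost without any 1 array (up to 0.109). IFITM2, a membrane protein that blocks viral entry, differed by 0.85 in KYSE30 and 0.31 in KYSE180 (adjusted p = 0.0536 over both lines), and DDX60, a helicase of RNA sensing, by 1.03 and 0.33 (0.0635). The medians of the list were 0.71 in KYSE30, where 25 members passed as higher, and 0.14 in KYSE180, where 8 did. Of all tested genes 8.42% passed as higher in KYSE30 and 2.55% in KYSE180. Of 17 genes of MHC class I presentation 5 were shared, all higher, or 13 without the pair of 180D-1. None passed the additive fit. As higher, 13 passed in KYSE30 and 0 in KYSE180, and the latter is near the share over all tested genes. The shared genes include the peptide-trimming enzyme ERAP2 (0.49 ± 0.09, adjusted p = 0.0595) and the immunoproteasome subunits PSMB10 (0.24 ± 0.05, 0.0995) and PSMB9 (0.43 ± 0.10, 0.110).

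The same promoter windows were searched for the interferon-stimulated response element, written as TTTCNNTTTC on either strand and also picked after the values were seen. It occurred in 3.02% of all promoters. Of the 16 shared interferon genes 13 had an entry, and 9 held a match, with 3 in IFIH1, 2 each in DDX60, IFIT1, IFITM3, ISG15 and OAS3, and 1 each in IFITM1, PARP14 and PARP9. HERC6, IFI35, IRF9 and SAMD9L held 0 in this window, which says only that these letters are not in it. The promoters of 3 genes with 2 matches each are shown, with the element in capitals, to compare its position and strand.
IFIT1 (chr10:89392373-89392622, plus strand): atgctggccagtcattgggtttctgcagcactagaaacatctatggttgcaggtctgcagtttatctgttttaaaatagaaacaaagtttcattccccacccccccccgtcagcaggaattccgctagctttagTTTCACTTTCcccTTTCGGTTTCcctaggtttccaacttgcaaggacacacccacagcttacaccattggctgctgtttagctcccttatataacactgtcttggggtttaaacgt
DDX60 (chr4:168318753-168319002, minus strand): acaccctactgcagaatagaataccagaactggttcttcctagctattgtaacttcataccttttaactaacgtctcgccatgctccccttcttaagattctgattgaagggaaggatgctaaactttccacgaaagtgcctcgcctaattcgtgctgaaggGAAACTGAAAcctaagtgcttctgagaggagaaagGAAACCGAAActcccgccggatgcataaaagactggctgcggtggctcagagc
IFITM3 (chr11:320861-321110, minus strand): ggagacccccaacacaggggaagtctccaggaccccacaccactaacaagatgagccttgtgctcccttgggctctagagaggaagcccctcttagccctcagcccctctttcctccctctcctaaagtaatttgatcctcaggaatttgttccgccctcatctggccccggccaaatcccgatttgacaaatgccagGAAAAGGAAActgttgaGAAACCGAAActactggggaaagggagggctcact

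The first base of each element, as printed, lay 116 and 103 bases before the start in IFIT1, 88 and 53 in DDX60, and 52 and 35 in IFITM3. Those of IFIT1 read on the strand shown and those of DDX60 and IFITM3 on the other strand. IFITM3 differed by 0.82 in KYSE30 and 0.27 in KYSE180.

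Genes of DNA replication that were shared all lay lower in D. Of 45 tested genes 18 were shared and lower in D and 0 were shared and higher, against 6.86% lower among all tested genes. None passed the additive fit. Of the 45, 29 passed as lower in KYSE30 and 0 in KYSE180, against 8.12% and 1.21% of all tested genes. The count of 0 in KYSE180 is thus near the share over all genes. RFC5, a subunit of the clamp loader, read 9.21 and 9.20 in 30U, 8.94 and 8.96 in 30D, 10.24 and 10.27 in 180U, and 9.98 and 10.11 in 180D (-0.24 ± 0.05, adjusted p = 0.0727). PCNA, the sliding clamp, read 12.36 and 12.41 in 30U, 12.04 and 12.07 in 30D, 12.06 and 12.11 in 180U, and 11.88 and 11.98 in 180D (-0.24 ± 0.05, adjusted p = 0.0941). The groups did not overlap within a line, and the KYSE180 differences were small, as for RRM2, a ribonucleotide reductase subunit (-0.27 in KYSE30 and -0.14 in KYSE180), and the primase PRIM2 (-0.33 and -0.13). The medians of the list were -0.29 in KYSE30 and -0.02 in KYSE180. With centred arrays 24 were shared and lower, and without the pair of 180D-1 and 180U-2 27 were lower and 1 higher.

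Genes of mitosis were counted apart from those of replication. Of 45 tested genes 10 were shared and higher and 2 lower, or 7 and 4 with centred arrays, and 1 passed. AURKA, a kinase of the centrosome and spindle, read 10.55 and 10.58 in 30U, 10.76 and 10.82 in 30D, 10.50 and 10.58 in 180U, and 10.82 on both 180D arrays. AURKA rose by 0.26 ± 0.04 (adjusted p = 0.0467) from nearly the same level in both lines, a call that was lost without any 1 array (adjusted p up to 0.174). The spindle checkpoint gene MAD2L1 (-0.22 ± 0.05, 0.0906), the kinesin KIF20A (0.18 ± 0.06, 0.190) and the ubiquitin-conjugating enzyme UBE2C (0.18 ± 0.06, 0.190) did not pass.

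**Figure D5:**
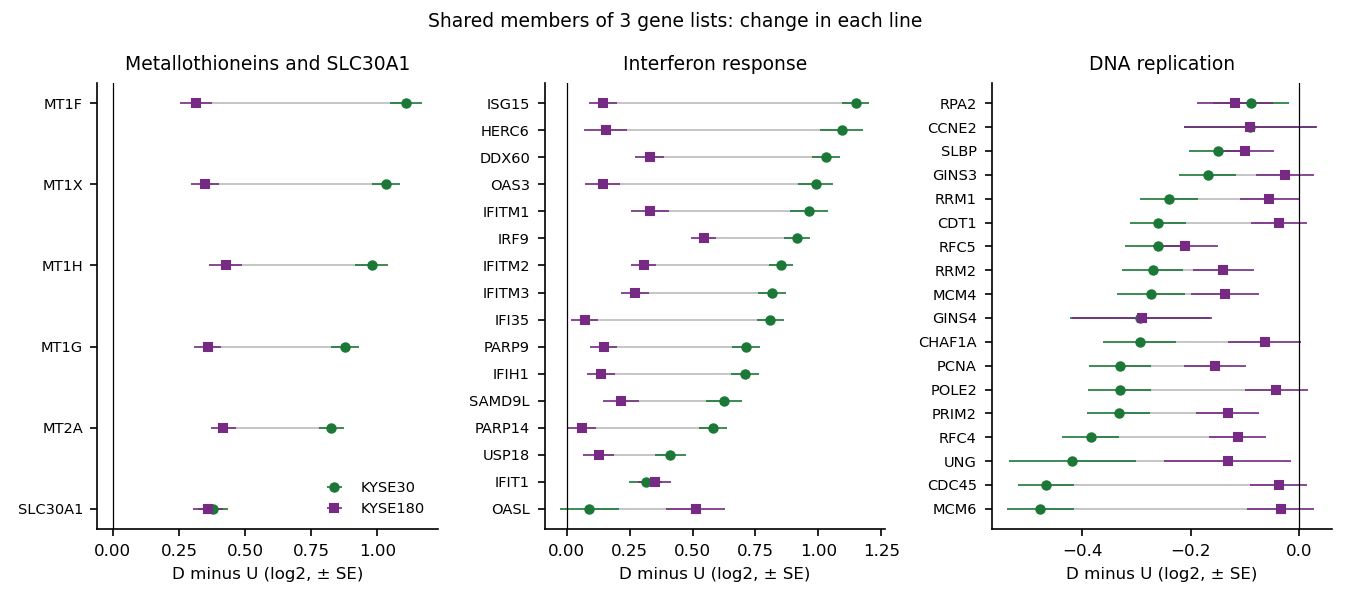
D minus U change (log2 ± SE) in KYSE30 (green circles) and KYSE180 (purple squares) of the shared genes of the metallothionein, interferon response and DNA replication lists. By the rule each gene lies on the same side of 0 in both lines. Most lie farther from 0 in KYSE30, as ISG15 does with 1.15 against 0.14.

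Whether a shared change had the same size in both lines was tested directly, as the KYSE180 change minus the KYSE30 change. It differed for 142 of the shared genes (5.38%), against 1723 of all tested genes (12.2%, 6.94% with a positive and 5.21% with a negative difference). A shared sign limits how far the sizes can lie apart, so the lower share among the shared genes follows in part from the rule. In 107 of the 142 the change was larger in KYSE30 and in 35 it was larger in KYSE180. Metallothioneins and interferon genes made up part of the first group, with 5 of 6 shared metallothionein-list genes, all but SLC30A1, and 13 of 16 shared interferon genes, each larger in KYSE30. SOX2, a squamous lineage factor, had the smallest p. It read 9.79 and 9.81 in 30U, 7.85 and 7.88 in 30D, 11.63 and 11.70 in 180U, and 11.67 and 11.61 in 180D. The KYSE30 groups lay far apart and the KYSE180 groups overlapped, so SOX2 met the sign rule in KYSE180 through pairs that differed by little (-0.03). BCAT1, a branched-chain aminotransferase, behaved likewise with -1.92 and -0.05, while C1orf21 differed in both lines, by -2.62 and -0.51. LAMP3, a lysosomal membrane protein, was higher by 1.55 in 30D and by 0.23 in 180D, and ISG15, a ubiquitin-like modifier, by 1.15 and 0.14.

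Larger in KYSE180 were the changes of SCG2, a secretogranin of secretory granules (0.20 in KYSE30 and 1.63 in KYSE180), LGALS1 (0.48 and 1.397), THSD4 (0.53 and 1.36) and SYTL5, a regulator of vesicle trafficking (-0.18 and -1.52). SCG2 read 5.46 and 5.48 in 30U, 5.76 and 5.59 in 30D, 6.93 and 6.87 in 180U, and 8.49 and 8.57 in 180D. GPNMB, a transmembrane glycoprotein, had differences of -0.68 and -1.62 and did not pass the additive fit (-1.15 ± 0.22, adjusted p = 0.0590), nor was its difference in size called (adjusted p = 0.0857). Among the 103 called shared genes 13 differed in size between the lines. The rest were not shown to be equal, since a gene could differ in size by less than these arrays resolve.

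The level of a gene in each line, which the rule did not compare between lines, was tested in the additive fit. It differed for 2041 of the shared genes (77.4%), against 67.1% of all tested genes (36.1% higher and 31.0% lower in KYSE180). Of the 2041, 1049 were higher in KYSE180 and 992 in KYSE30. Among the 68 called genes higher in D, 48 had the higher level in KYSE30 and 16 in KYSE180, and among the 35 lower in D, 12 had it in KYSE30 and 20 in KYSE180. ANXA3 (-3.91, KYSE180 minus KYSE30), LMO7 (-3.45) and S100P (-2.43) are examples of the first kind, and PRXL2A (3.13) and ARMCX6 (2.47) of the last. For HEY1 the level difference was 0.07 ± 0.15, an average of opposite differences. Its mean was higher in 30U (9.27) than in 180U (8.94) and lower in 30D (7.93) than in 180D (8.41).

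Where a gene had more than 1 probe set, the others gave a further reading from the same RNA. For 1464 shared genes with 2648 other probe sets, 1919 of these (72.5%) had a mean change in the same direction, and 591 had it in all 4 pairs. For the called shared genes, 85 of 95 other probe sets had the same mean direction and 43 the same sign in all 4 pairs. BDNF, HEY1, TMEM116 and TRIB2 each had 1 other probe set, which was lower in all 4 pairs. LRATD1 and PRXL2A each had 2 others, both with a lower mean in D and 1 of them lower in all 4 pairs, while those of SPRR3 and PDE5A had a lower mean without the same sign in every pair.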

How the data were processed

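The deposited values are log2 expression values that the authors made with RMA, per the submitters' processing notes. The sources used here give no version of it. RMA combines background correction, quantile normalization and 1 summary value per probe set. It makes the distributions of arrays alike, so a change in total RNA per cell would not show, and it compresses dim signals. MicroRNA arrays that the labels mention were not used here.

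Of 54675 probe sets, 41091 had 1 gene symbol in the platform annotation, 1801 several and 11721 none listed, and 62 served as controls. RefSeq (GRCh38.p14) matched 41037 of the former and gave current symbols. The probe set with the highest mean stood for its gene. Genes with a mean below 4.46, which is percentile 40 over all probe sets, were not tested, which left 14180 of 19775. The level threshold of the rule was read as the higher group mean of each line.

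Tests used limma 3.58.1 in R 4.3.3 (lmFit and eBayes, two-sided) with Benjamini-Hochberg adjustment over all tested genes. Errors after ± are SEs of the fit. The change over both lines and the level difference between them came from an additive fit (line plus fraction), and the rest from a model with 1 mean per group. Their number of arrays limits the precision. A bound ("at least") was measured from the filter value where a group mean lay below it, and that value is not a detection call. In simulated data for the change over both lines, 50 of 14180 genes were changed at each size. The fit recovered 29 at a log2 change of 0.3, 44 at 0.6, and 50 each at 1 and 2, with 14 false calls. No simulated gene differed in its change between the lines, as was called for 1723 tested genes, so recovery with such differences was not tested. They enter the residual spread that limma pools over genes. Recovery in the real data can therefore be lower, also for changes of equal size.

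The labels pair D and U sublines by parental population. Deviations of partners from their group means correlated at r = -0.02 in KYSE30 and 0.02 in KYSE180 across genes. The genes described in full are the 12 higher and 12 lower called shared genes with the largest change in the line where it was smaller, the 4 in each direction with the largest mean change besides these, up to 4 shared genes per described list in order of p, and the 3 in each direction with the smallest p for a difference in size. The members, the 34 gene lists and the 6 marker lists were chosen with earlier results of these data known. Alternatives covered the rule's level threshold and sign, the probe set per gene, the filter, centring of arrays, an intensity trend, the parental block and leaving out arrays.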

Additional observations from a re-analysis of the deposited data

Results flagged for a closer look

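The change from U to D differed in size between the lines, by limma's test of the difference itself, for 42 of the shared genes named in the text. Each value is the KYSE180 change minus the KYSE30 change on the log2 scale, with its adjusted p. The rule gave the changes 1 sign in both lines, so these are differences in size, but a change in each line does not follow. In KYSE180 SOX2 differed by -0.03 (limma adjusted p = 0.836) and BCAT1 by -0.05 (0.698), and in KYSE30 SCG2 differed by 0.20 (0.0998).

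Among genes higher in D, the change was larger in KYSE180 for SCG2 (1.43, 0.000375), LGALS1 (0.91, 0.000737), THSD4 (0.83, 0.00313), NMU (0.83, 0.00589), CNN3 (0.80, 0.00125), CDH2 (0.64, 0.0474) and FLRT2 (0.52, 0.00570). It was larger in KYSE30 for LAMP3 (-1.32, 0.000842), CCL5 (-1.04, 0.00221), ISG15 (-1.005, 0.000552), HERC6 (-0.94, 0.00439), OAS3 (-0.85, 0.00302), MT1F (-0.79, 0.00249), IFI35 (-0.74, 0.00202), DDX60 (-0.70, 0.00290), MT1X (-0.68, 0.00229), IFITM1 (-0.63, 0.0127), IFIH1 (-0.57, 0.00589), PARP9 (-0.56, 0.00552), IFITM3 (-0.55, 0.00719), IFITM2 (-0.55, 0.00428), MT1H (-0.55, 0.00937), PARP14 (-0.52, 0.00800), MT1G (-0.52, 0.00668), PSMB9 (-0.50, 0.0186), CLDN7 (-0.42, 0.0214), MT2A (-0.41, 0.0112), SAMD9L (-0.41, 0.0427), IRF9 (-0.37, 0.0196) and PLAUR (-0.30, 0.0473).

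Among genes lower in D, the change was larger in KYSE180 for SYTL5 (-1.34, 0.000411) and BDNF (-0.75, 0.00698). It was larger in KYSE30 for C1orf21 (2.11, 7.78e-05), SOX2 (1.91, 2.84e-05), BCAT1 (1.87, 5.03e-05), DSC3 (1.02, 0.00171), HEY1 (0.81, 0.00251), SLC7A11 (0.77, 0.00765) and ARMCX6 (0.55, 0.0109).

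In 3 of these genes a group mean lay below the filter value, so the measured difference and its adjusted p rest on dim readings. The measured differences were 1.55 for MMP16 (0.0438), -1.17 for LRATD1 (0.00368) and 2.18 for FREM2 (0.000172). With the dim mean set to the filter value, the difference in size was 1.06 for MMP16, -0.41 for LRATD1 and 1.201 for FREM2, with no test of these values.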

How the results depend on the processing

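The count of shared genes was 2638, and 1724 when no D array was allowed to overlap a U array of its line. With other level thresholds, mean probe sets or centred arrays it lay between 2185 and 3767 (centred 1349 higher and 1101 lower). Asking for the same sign in 3 pairs only, an alternative chosen after the data were seen, gave 3355 to 4416. Calls over both lines numbered 124. The parental population as a replicate block gave 0, the mean of the within-line contrasts 1281, that mean with the replicate block 602 (also chosen after the data were seen), and an intensity trend 195. Without single arrays the count was 16 to 77. Genes called in each line numbered 102, against 52 with the replicate block, 199 with an intensity trend, 59 with no filter on dim probe sets and 43 to 107 without single arrays. The size of the change differed between the lines for 1723 genes, against 1011 with the replicate block, 2700 with an intensity trend, 1142 with no filter and 727 to 1702 without single arrays. Apart from the construction of these settings, the cause was not tested. The level difference between the lines, 9518 genes, lay between 8294 and 10273 in every setting run, and of the 88 named genes none changed direction in the additive settings. Of these genes 36 lost a call with the replicate block, 4 with the mean of the probe sets (PDE5A, LGALS1, AURKA and NRP1), 2 without the filter and 2 with centred arrays. LGALS1 had no other probe set past the filter, so its own values were the same under the mean of the probe sets.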

Other observations

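Other lists held few shared genes that passed. In the hypoxia and glycolysis list 4 of 34 were shared and higher and 5 lower, and MXI1, an antagonist of MYC, was called lower (-0.40, limma adjusted p = 0.0270). Of 30 NRF2 targets 3 were shared and higher and 5 lower, or 1 and 7 with centred arrays, and none passed over both lines. Among them the cystine transporter SLC7A11 differed by -0.86 in KYSE30 and -0.09 in KYSE180. In the spliceosome list CLK4, a kinase of splicing factors, was called higher (0.33, adjusted p = 0.0182), with 5 of 45 shared and higher and 3 lower, or 7 and 8 without the pair of 180D-1. No fatty acid synthesis gene of 14 was shared, and of 20 cholesterol synthesis genes 1 was, HSD17B7, or 1 higher and 3 lower without that pair. Of 43 cytosolic ribosomal protein genes 3 were shared and higher and 1 lower, but 1 and 14 with centred arrays, and of 49 respiratory chain genes 2 and 6, but 1 and 16, or 4 and 11 without that pair.

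By position, the share of tested genes that were shared and lower ran from 4.23% on chromosome 20 to 11.4% on the X chromosome (50 of 440, 5 of them called), against 6.86% of all tested genes. The share that was higher ran from 7.28% on chromosome 7 to 16.7% on chromosome 20 (71 of 426). Runs of 4 neighbouring tested genes that were all shared and higher occurred at MT1F, MT1G, MT1H and MT1X on chromosome 16, at PGGHG, IFITM2, IFITM1 and IFITM3 and at CRACR2B, CD151, POLR2L and TSPAN4 on chromosome 11, at CLOCK, NMU, EXOC1 and CEP135 on chromosome 4, and at MALT1, ZNF532, SEC11C and RAX on chromosome 18. Only the metallothionein run held called genes, 2 of them. With 11.7% of all tested genes shared and higher, some runs can occur by position alone, and how many was not tested. Neighbouring copies of the metallothionein and IFITM families can share probes.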
